A study of Mus musculus with 2 samples.

Results

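The 6 loci described here, Mir142, Mir223, Mir146, Mir146b, Mir155 and Mir150, encode microRNAs known from microglia and blood leukocytes. They were chosen by that knowledge, although earlier results of these data were already known. The loci were found by the gene identifiers of the GENCODE M21 annotation among 2202 annotated microRNA loci, each with 1 row in both libraries. Both libraries are of RNA shorter than 30 nt. They were made from left cerebral cortex of B6CASTF1/J females, the F1 offspring of C57BL/6J and a CAST strain, at an age of 14 days, and they form 1 group of 2 biological replicates. The labels name no treatment, and no other genotype, age or tissue was analysed here. The label of replicate 1 refers to 3 females and that of replicate 2 to 1 female, both carry the same donor record, and neither says whether animals were pooled. Any spread given below is that between these 2 libraries, part of which may be technical.

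MicroRNAs are cut from hairpin precursors and guide silencing complexes to messenger RNAs, mainly through the seed, bases 2 to 8 of the mature strand. In the brain, microglia are the resident macrophages, while leukocytes are found mostly in vessels, meninges and choroid plexus. MiR-142 is made throughout the blood lineage and in microglia, miR-223 in neutrophils and other myeloid cells, and miR-150 in mature lymphocytes. MiR-146a and miR-146b are induced by NF-κB and dampen Toll-like receptor signalling, whereas miR-155 is induced in activated macrophages and lymphocytes and promotes inflammatory responses. In bulk tissue the reads do not show which cells supplied them, and fewer cells of a type cannot be told apart from less RNA per cell.

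The mature strands are shown because they define the targets and because their likeness decides which reads can be assigned to 1 locus. RefSeq (GRCm38.p6) gave 11 mature sequences for the 6 loci, printed 5′ to 3′ with the seed in capitals. Mir150 is represented by its 3p strand, miR-150-5p is not shown, and what is said of seeds covers these 11 strands. A deposited count covers the whole locus and does not separate the 2 arms of a hairpin.
miR-142a-5p: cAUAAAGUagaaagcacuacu
miR-142a-3p: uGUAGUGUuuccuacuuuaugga
miR-223-5p: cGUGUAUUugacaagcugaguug
miR-223-3p: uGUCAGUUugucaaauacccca
miR-146a-5p: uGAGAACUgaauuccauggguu
miR-146a-3p: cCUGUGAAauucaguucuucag
miR-146b-5p: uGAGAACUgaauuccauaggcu
miR-146b-3p: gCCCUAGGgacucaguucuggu
miR-155-5p: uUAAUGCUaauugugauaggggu
miR-155-3p: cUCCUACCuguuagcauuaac
miR-150-3p: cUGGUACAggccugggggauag

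Among these strands only miR-146a-5p and miR-146b-5p had the same seed. In the table of 1738 mature sequences no further entry carried the seed of any of the 11. The other 9 therefore had no seed relative in that table. The 2 miR-146 strands are set out again with the differing bases in capitals.
miR-146a-5p: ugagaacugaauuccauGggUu
miR-146b-5p: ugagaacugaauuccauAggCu
Counted from the 5′ end, with the miR-146a base first, the differences are G18A and U21C, and the other 20 of 22 bases are identical. The first 17 bases are shared, and the hairpins share a stretch of 21 nt that begins upstream of the mature strand. A read confined to that stretch matches both loci, and reads that mapped to several places enter no deposited locus count. For the other hairpins in the table, the longest stretch identical to any of the other hairpins was 13 nt for Mir142, 12 nt for Mir223 and 10 nt for Mir155.

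The loci lie on 5 chromosomes of mm10 and differ in their surroundings. Mir142 (chr11:87756864-87756927, plus strand) lies in an intron of the non-coding host Mir142hg and opposite Mir142b, a microRNA annotated on the minus strand at chr11:87756841-87756955. Mir146 (chr11:43374397-43374461, minus strand) is on the same chromosome, overlaps no annotated gene and is 45.8 kb from the nearest protein-coding gene, Pttg1. Mir155 (chr16:84714140-84714204, plus strand) overlaps an exon of its non-coding host Mir155hg. Mir223 (chrX:96242817-96242926, plus strand) overlaps an exon of the non-coding F630028O10Rik, with the macrophage receptor gene Vsig4 4.28 kb away. Mir146b (chr19:46342762-46342870, plus strand) lies in an intron of Mfsd13a, the only protein-coding gene that overlaps any of the 6. Mir150 (chr7:45121757-45121821, plus strand) overlaps no annotated gene.

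Depth was similar in the 2 libraries. Replicate 1 held 2740332 reads assigned to microRNA loci (35.4% of 7745369) and replicate 2 held 3207941 (33.3% of 9627908). Levels are counts per 1000000 gene-assigned reads (CPM), so that 1 read is worth 0.365 CPM in replicate 1 and 0.312 CPM in replicate 2. Where no read was counted, up to 3 remain possible, or 1.09 and 0.935 CPM. The microRNA strands are of nearly equal length (21 to 23 nt), and CPM is compared between loci without a correction for length. These limits and all intervals take in counting error alone, as reads without molecular identifiers are not independent molecules. As a check of the tissue, 9 of 13 loci known from neurons reached 10 reads in both libraries, as did 389 of all 2202 loci. The 13 neuronal loci together held 3.38% and 4.31% of gene-assigned reads. However, Mir124a-1, Mir124a-2 and Mir124a-3, the defining neuronal loci, had no more than 12 reads each. The miR-124 loci encode the same mature strand, and reads that map to several places enter no locus count (40.6% and 37.9% of all reads), so these counts do not give the level of miR-124.

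The 6 leukocyte loci together were a small part of the cortical microRNA reads. They held 4291 reads in replicate 1 and 6083 in replicate 2, which is 0.157% (exact binomial 95% interval 0.152 to 0.161%) and 0.190% (0.185 to 0.194%) of gene-assigned reads. The mean was 0.173 ± 0.0234% (SD, n = 2). Mir150 and Mir146 supplied most of it, 88.7% of the reads of the 6 in replicate 1 and 90.9% in replicate 2. Each of the 6 loci had at least 1 read in both libraries, and 4 of them, Mir150, Mir146, Mir155 and Mir142, had at least 10 reads in each, the minimum used to call a locus detected. Mir223 and Mir146b fell under it in replicate 1. Of all 2202 loci, 389 were detected.

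Mir150, of lymphocytes, had 1419 reads in replicate 1 and 3426 in replicate 2, or 518 and 1068 CPM. Mir146, the negative regulator of Toll-like receptor signalling, had 2388 and 2102 reads, or 871 and 655 CPM. Replicate 2 was thus the higher library for Mir150 and the lower one for Mir146, and the leading locus differed between them. The means were 793 ± 389 CPM for Mir150 and 763 ± 153 CPM for Mir146 (SD, n = 2), places 114 and 117 among the 2202 loci and above the median of the 389 detected loci, 149 CPM. Of the 2202 loci, 1450 had no read in either library.

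Mir155, the activation-induced microRNA, was lower, with 332 and 265 reads (121 and 82.6 CPM, mean 102 ± 27.3). Mir142, of the whole blood lineage, had 140 and 219 reads (51.1 and 68.3 CPM, mean 59.7 ± 12.1). Both were below the median of detected loci, at places 209 and 230. Mir155 was higher in replicate 1 and Mir142 in replicate 2, and their exact Poisson 95% intervals did not overlap in replicate 1 (108 to 135 against 43.0 to 60.3 CPM) but did in replicate 2 (73.0 to 93.2 against 59.5 to 77.9 CPM).

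Mir223, of neutrophils, had 3 reads in replicate 1 and 45 in replicate 2. These counts amount to 1.09 CPM (exact Poisson 95% interval 0.226 to 3.20) and 14.0 CPM (10.2 to 18.8), the first being at the level that a count of 0 allows. Mir146b had 9 and 26 reads, or 3.28 CPM (1.5 to 6.2) and 8.10 CPM (5.29 to 11.9). Both were higher in replicate 2, and for Mir223 the SD of 9.14 CPM exceeded the mean of 7.56 CPM. Mir146b was the lowest of the 6 by mean, at 5.69 ± 3.41 CPM and place 371, with Mir223 at place 347. In the single libraries Mir223 was at places 509 (replicate 1) and 312 (replicate 2).

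**Figure D1:**
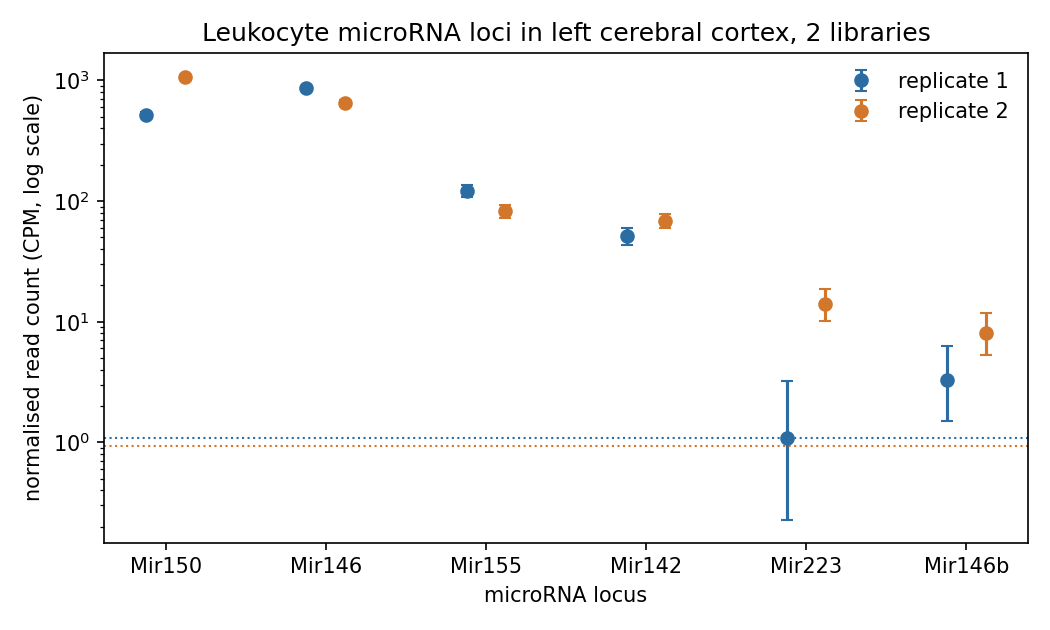
Normalised read count (CPM, log axis) of each leukocyte locus in replicate 1 (blue) and replicate 2 (orange), with exact Poisson 95% intervals. Dotted lines mark the level that a count of 0 allows in each library. Mir150 and Mir146 lie between 518 and 1068 CPM, Mir155 and Mir142 between 51.1 and 121 CPM, and Mir223 in replicate 1 sits on the dotted line.

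The order by mean level was Mir150, Mir146, Mir155, Mir142, Mir223 and Mir146b. A pair of neighbours in this order was counted as resolved when both libraries gave the same order and the gap between the means exceeded the sum of the 2 SDs, which held for 3 of 5 pairs. Mir150 and Mir146 were not resolved, with a gap of 29.6 CPM against summed SDs of 542 CPM. The gap from Mir146 to Mir155 was 661 CPM against 180 CPM, and Mir146 was 7.19 times and 7.93 times as high as Mir155 in replicates 1 and 2. Mir155 and Mir142 were resolved narrowly, by 42.2 against 39.4 CPM, and their ratio moved from 2.37 in replicate 1 to 1.21 in replicate 2. The gap from Mir142 to Mir223 was 52.1 CPM against summed SDs of 21.3 CPM. Mir223 and Mir146b were not resolved and changed places between the libraries. Of all 15 pairs among the 6 loci, 13 had the same order in both.

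The miR-146 pair was dominated by Mir146. Of the reads at the 2 loci, Mir146b held 0.375% in replicate 1 (exact binomial 95% interval 0.172 to 0.712%) and 1.22% in replicate 2 (0.800 to 1.79%). The intervals did not overlap, and the share was higher in replicate 2. The common seed is that of the 5p strands, and these locus counts take in both arms. Reads that matched both loci are missing from either count, and their number is not given in the files.

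Mir142 was counted only where strand was kept. Its 140 and 219 reads came from the column for the RNA strand. The column that ignores strand sets 190370 and 216847 reads aside as ambiguous, and there Mir142, which Mir142b overlaps, was listed at 0 in both libraries. Mir142b itself had 0 reads on its own strand, which leaves room for at most 1.09 CPM (replicate 1) and 0.935 CPM (replicate 2). In the opposite-strand column the Mir142b row held the same 140 and 219 reads. The Mir142 hairpin is shown with its 2 mature arms in capitals, followed by the mature strand annotated for Mir142b, whose 20 bases are the exact reverse complement of a stretch of miR-142a-3p.
Mir142: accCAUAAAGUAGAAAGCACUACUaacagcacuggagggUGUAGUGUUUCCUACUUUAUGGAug
miR-142b: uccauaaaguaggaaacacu
For the other 5 loci the columns with and without strand held the same counts, and no read was counted on the opposite strand.

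The libraries were then compared locus by locus, to ask whether the detected leukocyte loci moved together. They did not: Mir150 was higher in replicate 2, whereas Mir146 and Mir155 were lower. Reads were scaled by edgeR's trimmed mean of M values (TMM), and an exact binomial test, two-sided and adjusted by Benjamini and Hochberg, was run on each of the 389 detected loci. The test compares these libraries and not conditions, and its p-values cover counting error only. Past this test were 58.4% of the detected loci. Replicate 2 was the higher library for 28.8% and the lower for 29.6% of all detected. Of the 4 detected leukocyte loci 3 passed, 1 higher and 2 lower, so mixed directions were not particular to them. Scaled by library totals alone, the calls over all detected loci were 159 upward and 77 downward, against 112 and 115 with TMM, and the median log2 ratio moved from -0.0098 to 0.16. The median log2 ratio of the 4 detected leukocyte loci was -0.17 with TMM.

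Mir150 had a log2 ratio of replicate 2 to replicate 1 of 0.87 (exact binomial 95% interval 0.78 to 0.96), a 1.83-fold difference with an adjusted p of 1.30e-86. Of the detected loci, 59 had a larger absolute log2 ratio. Mir146 had a log2 ratio of -0.58 (-0.67 to -0.50, exact binomial test, adjusted p = 5.49e-41) and Mir155 one of -0.72 (-0.96 to -0.49, adjusted p = 3.05e-09), so that both were lower in replicate 2 by a similar amount. For Mir142 the log2 ratio was 0.25 (-0.067 to 0.56, exact binomial test, adjusted p = 0.174), which did not pass with TMM scaling and did with library totals (0.42, adjusted p = 0.0143).

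The minimum of 10 reads in each library removes loci that are low in either of them, so Mir223 and Mir146b were tested only in the alternative without a minimum, over 752 loci with at least 1 read, of which 31.9% differed. There Mir223 had a log2 ratio of 3.53, an 11.5-fold difference with an exact binomial 95% interval of 3.71 to 58.1 and an adjusted p of 7.31e-08. It rests on 3 reads in replicate 1. Among the 616 loci with a read in both libraries none had a larger absolute log2 ratio, a comparison made after its value was seen. Loci read in a single library have no finite ratio and were left out of that comparison. Mir146b had a log2 ratio of 1.15 (0.014 to 2.43) and did not pass the exact binomial test after adjustment (p = 0.109). In that alternative 4 of the 6 leukocyte loci differed, Mir150 and Mir223 higher and Mir146 and Mir155 lower in replicate 2. The median log2 ratio of the 6 was 0.58, against 0.031 over the 616 loci. It takes in Mir223 and Mir146b, which had few reads in replicate 1, and does not show a shift of the 6 as a group. With the minimum, the 4 detected leukocyte loci had a median of -0.17.

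**Figure D2:**
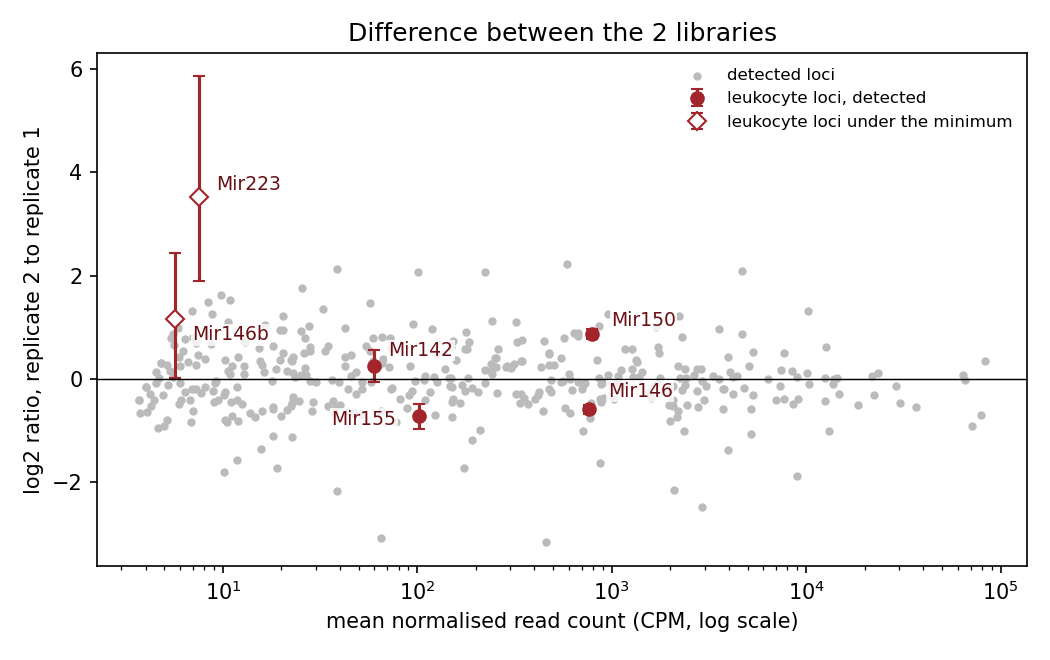
Log2 ratio of replicate 2 to replicate 1 against mean normalised read count (CPM, log axis) for the 389 detected loci (grey) and the leukocyte loci (red, with exact binomial 95% intervals; open diamonds mark those under the detection minimum). Mir223 lies at 3.53, Mir150 at 0.87, and Mir146 and Mir155 at -0.58 and -0.72. The ratios of the open diamonds come from the fit without a minimum, unlike those of the grey loci.

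The make-up of the reads at the 6 loci differed accordingly. Mir146 held 55.7% of the reads of the 6 loci in replicate 1 and 34.6% in replicate 2, while Mir150 held 33.1% and 56.3%. Mir155 went from 7.74% to 4.36%. Mir142 had similar parts, 3.26% and 3.60%, and Mir223 held 0.0699% and 0.740%. The larger summed share in replicate 2 thus came with more reads of Mir150 and a smaller part for Mir146 and Mir155.

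**Figure D3:**
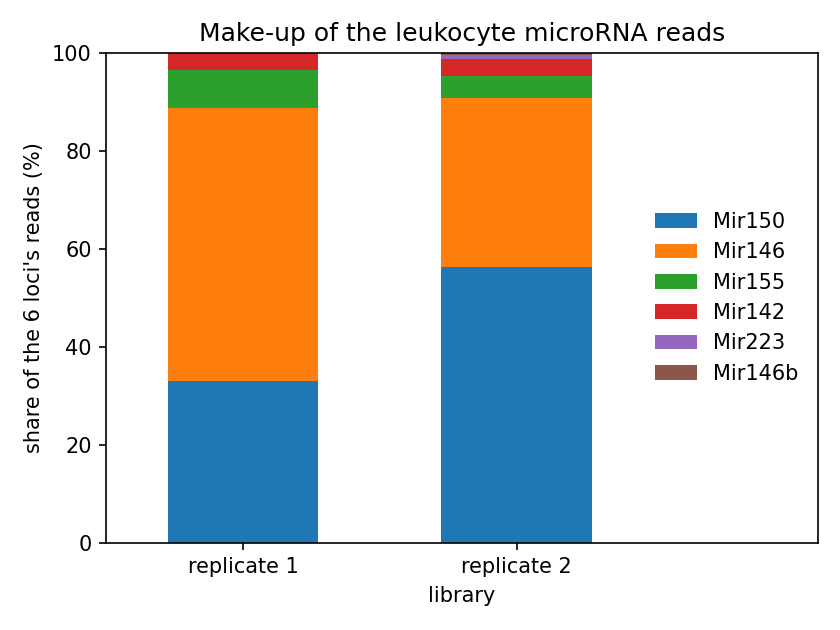
Share of the reads of the 6 leukocyte loci (%, stacked to 100) held by each locus in the 2 libraries. Mir146 is the largest part in replicate 1 (55.7%) and Mir150 in replicate 2 (56.3%).

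The summed levels of erythroid, vascular and oligodendrocyte loci were lower in replicate 2, as Mir146 and Mir155 were, whereas Mir150 and Mir223 were higher. The summed share of the 13 neuronal loci was higher in replicate 2 (3.38% and 4.31%), but its members were split. Past the exact binomial test 4 of the 9 detected were higher and 3 lower, where 58.4% of all detected loci passed. Mir128-1 had a log2 ratio of 1.32 and Mir138-1 one of -1.07. Reads that map to several places enter none of the locus counts in these lists, so the values are those of loci and not of mature microRNAs. Of 4 annotated erythroid loci 3 were detected and Mir451b had 0 reads in both; their summed level was 976 CPM in replicate 1 and 585 CPM in replicate 2. Mir451a, a leading microRNA of red cells, had 908 and 510 CPM and a log2 ratio of -1.0 (exact binomial test, adjusted p = 4.60e-108), while Mir144 (0.13) and Mir486 (-0.36) did not pass. The endothelial and mural loci held 2.12% and 1.36% of reads, with 3 of 5 detected, and Mir126b and Mir145b at 0 in both. Past the exact binomial test 2 of the 3 were lower and 1 higher in replicate 2: Mir126a, of endothelium, had a log2 ratio of -1.01, Mir143, of smooth muscle, one of -0.28 and its neighbour Mir145a one of 0.36 (adjusted p = 0.000336). The oligodendrocyte loci held 0.428% and 0.148%, with 3 of 3 detected. Past the exact binomial test 2 of the 3 were lower, Mir219a-2 at -2.14 and Mir338 at -0.76, while Mir219a-1 (-0.40) did not pass. Leukocyte and erythroid loci are both known from blood cells. Their summed shares moved in opposite directions, 0.157% to 0.190% against 0.0976% to 0.0585%. Neither list moved as a whole: Mir150 rose from 518 to 1068 CPM while Mir146 fell from 871 to 655 CPM. Among the erythroid loci only Mir451a passed the test. The shares are not scaled by TMM, with which the 4 detected leukocyte loci had a median log2 ratio of -0.17. What part these shifts have in the levels of the 6 loci was not tested.

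**Figure D4:**
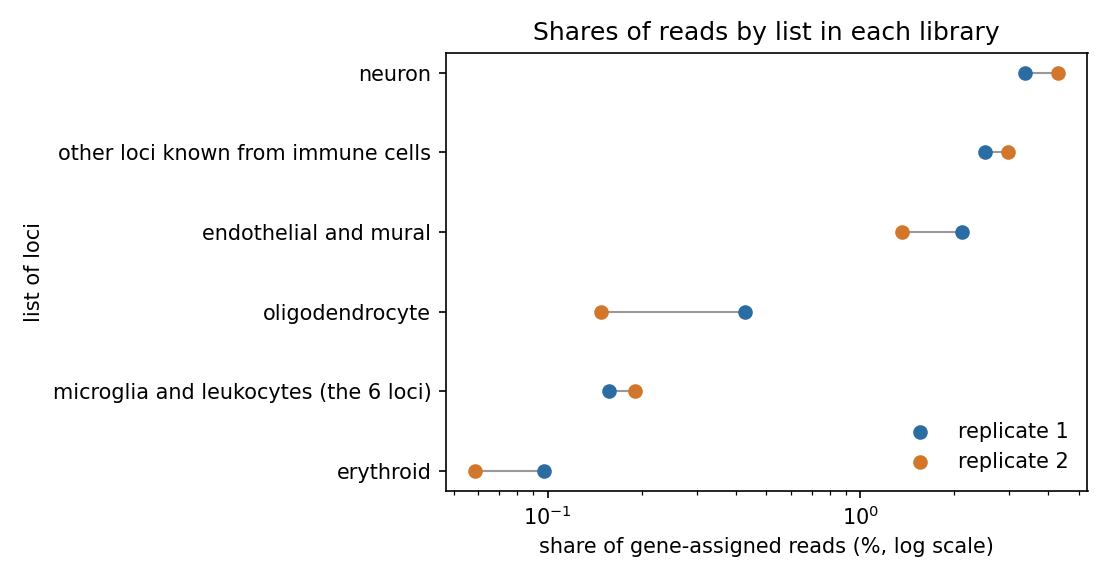
Share of gene-assigned reads (%, log axis) held by the 6 leukocyte loci and by 5 other lists of loci in replicate 1 (blue) and replicate 2 (orange), joined by a line. The leukocyte loci (0.157% and 0.190%) lie between the erythroid loci (0.0976% and 0.0585%) and, by mean share, the oligodendrocyte loci (0.428% and 0.148%).

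Other loci known from immune cells, most of which are also made in other tissues, were far more abundant. The list had 15 entries, of which 14 had a row and 11 were detected, and its share was 2.52% and 2.97% in replicates 1 and 2. Of the 11, 4 were higher and 2 lower in replicate 2 past the exact binomial test, a share close to the 58.4% of all detected loci. Mir342, hosted by Evl, led with 8924 ± 909 CPM, followed by Mir125a at 7686 ± 2535 CPM and Mir23a at 6391 ± 556 CPM (SD, n = 2). The following were named after their values were seen. Mir21a, an inflammation-associated microRNA, had 530 and 571 CPM and lay between Mir146 and Mir155 by mean. Mir511, in the macrophage mannose receptor gene Mrc1, had 15 and 6 reads. Mir147, induced in stimulated macrophages, had 1 and 4 reads. Mir511 and Mir147 were thus at the low end, as Mir223 was in replicate 1.

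Loci with the most similar levels were looked up by their distance from each of the 6 in log2(CPM + 1) over the 2 libraries. Likeness here rests on 2 values per locus. Mir574 and Mir542 were nearest to Mir142, at 48.5 and 69.2 CPM and at 53.6 and 72.3 CPM in replicates 1 and 2. Mir28a and the oligodendrocyte locus Mir338 were nearest to Mir146, at distances of 0.11 and 0.13 log2 units. Mir92-1 (517 and 1192 CPM) and Mir204 (445 and 893 CPM) were nearest to Mir150 and were likewise higher in replicate 2. Mir135b and Mir377 were nearest to Mir155, both at a distance of 0.29. Mir6897 and Mir6715 were nearest to Mir146b (0.12 and 0.16). For Mir223 the nearest detected loci, Mir547 and Mir218-1, were 1.22 and 1.27 log2 units away. Only loci with at least 10 reads in each library were searched, and Mir223 had 3 in replicate 1. That minimum alone keeps every candidate apart from Mir223, so these distances do not show that its level is unusual.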

How the data were processed

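Small RNA libraries from 2 replicates of 1 group were analysed. The authors deposited whole read counts per microRNA gene, made on mm10 with GENCODE M21 per the list of files deposited beside them. The aligner is not given in the sources used here, nor are counter and trimming. The 3 count columns carry no names; their meaning (without strand, RNA strand, opposite strand) was inferred from the values, and column 3 of the file, the RNA strand, was used. Library sizes exclude the 4 rows without a gene. Reads that mapped to several places made up 40.6% and 37.9% of all reads, unmapped reads 18.1% and 22.8%, and reads on no locus 5.93% and 6.03%. Gene-assigned totals were 2740332 and 3207941, so that 95% intervals are wide only for loci with few reads.

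Symbols, positions and overlapping genes were taken from GENCODE M21, in which all 2202 identifiers matched, and sequences from RefSeq GRCm38.p6, with mature entries for 6 and hairpins for 5 of the 6 loci. Counts were compared with a two-sided exact binomial test (scipy 1.17.1) on library sizes scaled with TMM (edgeR 4.0.16, R 4.3.3), Benjamini-Hochberg adjustment over all loci with at least 10 reads in each library and a threshold of 0.05. With 1 group, no count model with replicates could be fitted to a contrast. The procedure was tested on simulated counts that held counting error only. That simulation does not show how the procedure behaves for libraries that differ by more than counting error. Alternatives were the column without strand, minimums of 5 or 50 reads or none, DESeq2 1.42.0 size factors, library totals, all reads as the denominator, and each replicate left out. Named loci were the 6 members, detected loci with the same seed, antisense loci, the 2 nearest in level to each member, and the 3 most abundant detected loci of each comparison list; others are identified where they appear. The members and lists were chosen with earlier results of these data known.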

Additional observations from a re-analysis of the deposited data

How the results depend on the processing

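The direction between the libraries was the same in each setting in which a locus was tested. With all reads of the library as the denominator, the 6 loci together held 0.0593%, and reads per 1000000 were 269.5 for Mir150, 263 for Mir146, 35.2 for Mir155, 20.4 for Mir142 and 1.93 for Mir146b, since unassigned reads enter. Mir223 moved by less than its SD. Without strand, Mir142 was 0 and 3 of the 6 loci were detected, against 4; 5 were with a minimum of 5 reads. Mir142 passed the exact binomial test only with library totals (0.42, adjusted p = 0.0143; 0.122 to 0.207 in the other settings). Over all 7 settings Mir150 lay between 0.87 and 1.04, Mir146 between -0.59 and -0.41 and Mir155 between -0.73 and -0.55, each past the test. Mir223 was tested in 1 setting and Mir146b in 2 (adjusted p 0.0755 and 0.109). Leaving out a replicate gave 0.157% or 0.190% for the 6 loci and 1.09 or 14.0 CPM for Mir223; the order of levels could not be judged from 1 library. No paired analysis was possible because there is 1 group. Depth limits Mir223 and Mir146b, with 3 and 9 reads in replicate 1.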
